A study of Mus musculus with 12 samples.

Results

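The dopamine, adenosine, muscarinic and cAMP signalling genes of striatal projection neurons were measured in the striatum of mice that carried a Huntington's disease (HD) transgene, lacked p62, or both. The set was named gene by gene: the receptor genes Drd1, Drd2, Drd3, Adora2a, Chrm4 and Chrm1, the G protein subunit genes Gnal and Gng7, the adenylyl cyclase gene Adcy5, and Ppp1r1b, which encodes DARPP-32. A gene was counted as measured when a probe set of the array carried its symbol and no other, and the brightest such probe set stood for the gene. This held for 9 of the 10 genes, out of 19248 genes in all, and each of the 9 had 1 probe set. No probe set with Adora2a as its single symbol was in the platform table used here, so this adenosine receptor gene was not analysed here.

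Each of 12 Affymetrix whole-transcript arrays held striatal RNA of 8-week-old mice, in 4 groups of 3 samples that the titles call biological replicates. HD_p62KO mice carried the HD transgene and were p62-/-. HD_p62WT mice carried the HD transgene with normal p62. NT_p62KO mice were p62-/- without the transgene, and NT_p62WT mice had normal p62 and no transgene. The HD line, its transgene promoter, the strain and the cells in which p62 was deleted are not stated by the labels. Values are log2 expression values made by RMA (robust multi-array averaging), on which a difference of 1 is a doubling. Differences below are HD minus non-transgenic, or p62 knockout minus normal p62, on this log2 scale. A gene is said to have risen or fallen only where the adjusted p from limma was below 0.05. Within each comparison the Benjamini-Hochberg adjustment ran over all 19248 genes.

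Most neurons of the striatum are GABAergic projection neurons of 2 kinds. Direct-pathway neurons carry D1 dopamine receptors and M4 muscarinic receptors, and indirect-pathway neurons carry D2 dopamine receptors and the adenosine receptor encoded by Adora2a. That receptor and D1 couple to Golf, a G protein built on the subunit encoded by Gnal with Gng7 as its gamma subunit, which stimulates adenylyl cyclase 5. D2 and M4 receptors couple to inhibitory G proteins that lower cAMP. cAMP activates protein kinase A, which phosphorylates DARPP-32 and so turns it into an inhibitor of protein phosphatase 1. Loss of dopamine receptor and other projection neuron transcripts is a long-known feature of HD striatum.

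The targeted gene separated the p62 genotypes. Sqstm1, which encodes p62, averaged 9.02 ± 0.10 in HD_p62KO mice and 11.51 ± 0.25 in HD_p62WT mice (SD, n = 3 each). It averaged 8.49 ± 0.038 in NT_p62KO mice and 11.26 ± 0.079 in NT_p62WT mice (SD, n = 3 each). Array medians lay between 7.70 and 7.73 and correlations of arrays within a group between 0.988 and 0.995. The SD over all probe sets of an array was 1.79 to 1.87 in the 6 HD arrays and 1.73 to 1.82 in the 6 non-transgenic arrays. The mouse NT_p62WT 2 stood apart in transcripts made by midbrain dopamine neurons, as described with Th below. As a check of the tissue, the 7 other projection neuron markers measured had list means per mouse, all above the array medians, of 10.37 to 10.55 in HD mice and 11.09 to 11.36 in non-transgenic mice. In these bulk samples, fewer cells of a type and less RNA per cell cannot be told apart.

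The 250 bases before the start of 4 genes that fell, Drd1, Chrm4, Drd2 and Adcy5, and of Drd3, which did not pass the test, are shown because the receptor and cyclase genes moved together or stood apart from each other. They are RefSeq sequences on GRCm38.p6, where 6 of the 10 genes had an entry. That of Gnal, which did not pass the test either, is not shown. Drd1 had 2 entries, and the window further upstream is shown. They were searched on both strands for 3 motifs. These were the GC box, spelled GGGCGG, which reads CCGCCC on the other strand, the half-site of the cAMP response element (CRE), spelled TGACG, and the full CRE, spelled TGACGTCA, which contains the half-site. Capitals mark GC boxes. The windows are chr13:54055659-54055908 (minus strand) for Drd1, chr2:91921939-91922188 (plus strand) for Chrm4, chr9:49340153-49340402 (plus strand) for Drd2, chr16:35154614-35154863 (plus strand) for Adcy5 and chr16:43761971-43762220 (plus strand) for Drd3.
Drd1 promoter: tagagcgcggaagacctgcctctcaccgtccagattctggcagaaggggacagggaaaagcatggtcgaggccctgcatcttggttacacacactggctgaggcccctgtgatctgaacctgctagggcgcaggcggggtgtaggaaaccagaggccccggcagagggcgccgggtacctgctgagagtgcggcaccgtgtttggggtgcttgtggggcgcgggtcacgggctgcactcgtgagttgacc
Chrm4 promoter: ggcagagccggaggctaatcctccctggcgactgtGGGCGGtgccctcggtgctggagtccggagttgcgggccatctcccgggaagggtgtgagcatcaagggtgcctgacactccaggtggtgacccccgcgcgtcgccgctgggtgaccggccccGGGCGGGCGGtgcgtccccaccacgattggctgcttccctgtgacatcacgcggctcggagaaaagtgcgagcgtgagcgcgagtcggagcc
Drd2 promoter: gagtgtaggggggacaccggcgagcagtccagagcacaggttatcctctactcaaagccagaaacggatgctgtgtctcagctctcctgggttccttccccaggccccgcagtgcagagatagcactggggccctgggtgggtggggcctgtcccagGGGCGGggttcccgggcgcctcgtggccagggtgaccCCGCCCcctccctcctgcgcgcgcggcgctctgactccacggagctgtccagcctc
Adcy5 promoter: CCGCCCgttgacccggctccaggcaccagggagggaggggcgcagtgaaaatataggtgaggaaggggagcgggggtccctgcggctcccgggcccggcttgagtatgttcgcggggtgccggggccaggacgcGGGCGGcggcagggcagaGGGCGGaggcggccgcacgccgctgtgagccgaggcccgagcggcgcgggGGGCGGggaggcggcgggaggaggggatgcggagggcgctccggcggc
Drd3 promoter: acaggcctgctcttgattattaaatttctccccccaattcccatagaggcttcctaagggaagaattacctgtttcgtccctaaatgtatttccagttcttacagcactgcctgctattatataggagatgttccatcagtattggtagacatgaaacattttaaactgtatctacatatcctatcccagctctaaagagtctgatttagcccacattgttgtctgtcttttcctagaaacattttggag
The Adcy5 window held 4 GC boxes, that of Chrm4 held 3, of which 2 overlap, and that of Drd2 held 2. The windows of Drd1 and Drd3 held 0. None of the 5 windows held a CRE half-site or a full CRE. Of 32851 mouse promoter windows of the same length, 32.7% held a GC box, 17.8% a CRE half-site and 1.5% a full CRE. G and C made up 64.0% of the bases for Drd1, 70.0% for Chrm4, 68.8% for Drd2, 78.0% for Adcy5 and 39.2% for Drd3, against a median of 52.4% over all windows. These matches describe the letters of the windows only.

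In HD striatum 7 of the 9 measured genes fell and 0 rose, averaged over both p62 genotypes. The 7 were Drd1, Drd2, Chrm4, Chrm1, Ppp1r1b, Adcy5 and Gng7. Across all genes 15.0% fell and 19.9% rose in that comparison. The median difference was -0.49 over the 9 genes and -0.02 over all genes. For 6 of the 9 (Drd1, Drd2, Chrm4, Chrm1, Ppp1r1b and Adcy5), all 6 HD mice lay below all 6 non-transgenic mice, which was so for 5.69% of all genes. The plot of values by mouse shows this gap in 6 of its 9 panels.

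**Figure D1:**
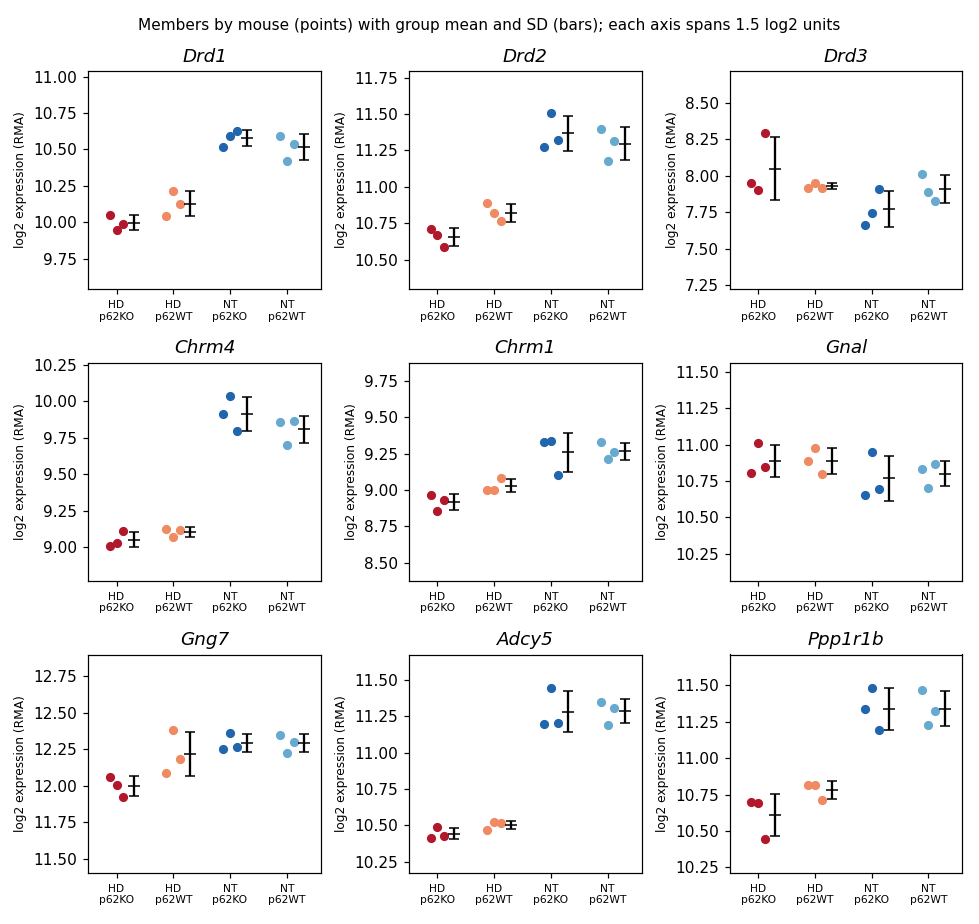
Each panel plots the log2 expression value of 1 gene (vertical axis, 1.5 log2 units in every panel) in each mouse, as 1 point, for the 4 groups (horizontal axis), with the group mean and SD as bars. In Drd1, Drd2, Chrm4, Chrm1, Adcy5 and Ppp1r1b all 6 HD points lie below all 6 non-transgenic points, while the points of Drd3 and Gnal overlap, and those of Gng7 overlap between HD_p62WT and the non-transgenic groups.

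Drd1, the stimulatory dopamine receptor of direct-pathway neurons, measured 10.05, 9.95 and 9.99 in the HD_p62KO mice and 10.04, 10.21 and 10.13 in the HD_p62WT mice. It measured 10.52, 10.59 and 10.63 in the NT_p62KO mice and 10.59, 10.42 and 10.54 in the NT_p62WT mice. The highest HD mouse, HD_p62WT 2, lay 0.20 below the lowest non-transgenic mouse, NT_p62WT 2. Drd1 fell by 0.49 ± 0.051 (SE) in HD mice over both p62 genotypes, which is 1.40-fold lower (adjusted p = 8.04e-05, limma). Without p62 the difference was -0.58 (95% interval -0.74 to -0.43, adjusted p = 0.000686, limma). With normal p62 it was -0.39 (95% interval -0.54 to -0.23, adjusted p = 0.0108, limma). The call with normal p62 was lost when HD_p62WT 1 was left out (adjusted p = 0.0524, limma) or NT_p62WT 1 (adjusted p = 0.0504, limma). The difference was then -0.34 and -0.35.

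Chrm4 encodes the M4 receptor, which opposes D1 signalling in the same neurons. It measured 9.01, 9.03 and 9.11 in the HD_p62KO mice and 9.13, 9.07 and 9.12 in the HD_p62WT mice. It measured 9.91, 10.03 and 9.80 in the NT_p62KO mice and 9.86, 9.70 and 9.86 in the NT_p62WT mice. The 6 HD values spanned 0.12 and the gap to the nearest non-transgenic mouse, NT_p62WT 2, was 0.58. Chrm4 fell by 0.79 ± 0.053 (SE), a 1.72-fold lower level in HD mice (adjusted p = 5.06e-06, limma), and it ranked 15 of 19248 genes by p. Without p62 the difference was -0.87 (95% interval -1.03 to -0.70, adjusted p = 9.08e-05, limma), and with normal p62 it was -0.71 (95% interval -0.87 to -0.54, adjusted p = 5.00e-04, limma).

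Drd2, the inhibitory dopamine receptor of indirect-pathway neurons, was also the only indirect-pathway receptor of the set that was measured. It measured 10.71, 10.67 and 10.59 in the HD_p62KO mice and 10.89, 10.82 and 10.76 in the HD_p62WT mice. It measured 11.27, 11.50 and 11.32 in the NT_p62KO mice and 11.40, 11.18 and 11.32 in the NT_p62WT mice. Within the HD mice the 3 HD_p62KO values lay below the 3 HD_p62WT values, as they also did for Chrm1, Ppp1r1b and Gng7. The share of all genes with this order was not counted, so no effect of p62 can be read from the order. In HD mice the p62 difference of Drd2 was -0.17 (adjusted p = 0.9999, limma). Drd2 fell by 0.59 ± 0.058 (SE) in HD mice, which is 1.51-fold lower (adjusted p = 4.81e-05, limma). The difference was -0.71 without p62 (95% interval -0.89 to -0.53, adjusted p = 0.000452, limma) and -0.47 with normal p62 (95% interval -0.65 to -0.30, adjusted p = 0.00754, limma). Drd2 is also made by midbrain dopamine neurons, and NT_p62WT 2, the mouse high in their transcripts, had the lowest Drd2 of the non-transgenic mice.

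Drd3, the dopamine receptor best known from the ventral striatum, did not pass the test. It measured 7.95, 7.90 and 8.29 in the HD_p62KO mice and 7.92, 7.95 and 7.91 in the HD_p62WT mice. It measured 7.66, 7.74 and 7.91 in the NT_p62KO mice and 8.01, 7.89 and 7.83 in the NT_p62WT mice. HD_p62KO 3 was the highest of the 12 mice, and the groups overlapped. The mean HD difference was 0.15 (95% interval -0.01 to 0.31, adjusted p = 0.128, limma), and without p62 it was 0.28 (adjusted p = 0.0713, limma). Without HD_p62KO 3 these differences were 0.09 and 0.15, and neither passed. Drd3 passed the test without p62 with array weights, at 0.44 (adjusted p = 0.00583, limma), and when only genes above the 50th percentile of brightness were tested (adjusted p = 0.0429, limma). With array weights it also passed over both p62 genotypes, at 0.22 (adjusted p = 0.0184, limma).

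Chrm1, the M1 receptor, couples to Gq and is made by projection neurons of both kinds. It measured 8.97, 8.86 and 8.93 in the HD_p62KO mice and 9.00, 9.00 and 9.08 in the HD_p62WT mice. It measured 9.33, 9.34 and 9.10 in the NT_p62KO mice and 9.33, 9.21 and 9.26 in the NT_p62WT mice. The gap between the highest HD mouse, HD_p62WT 3, and the lowest non-transgenic mouse, NT_p62KO 3, was 0.02. Chrm1 fell by 0.29 ± 0.054 (SE) in HD mice, 1.22-fold lower (adjusted p = 0.00234, limma). The difference passed the test without p62 (-0.34, adjusted p = 0.0120, limma) and did not with normal p62 (-0.24, adjusted p = 0.0788, limma). Without p62 the call was lost when HD_p62KO 2 was left out (adjusted p = 0.0543, limma) or when the fit held only the groups compared (adjusted p = 0.0538, limma). With normal p62 a call was gained without NT_p62KO 3, after quantile normalization, above the 50th percentile of brightness, with array weights and without 3 arrays of small spread (adjusted p between 0.0188 and 0.0468, limma).

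Of the 2 Golf subunits, Gnal did not pass the test and Gng7 had the smallest fall of the 7 genes called. Gnal, the alpha subunit of Golf, measured 10.81, 11.01 and 10.85 in the HD_p62KO mice and 10.89, 10.98 and 10.80 in the HD_p62WT mice. It measured 10.66, 10.95 and 10.70 in the NT_p62KO mice and 10.83, 10.71 and 10.87 in the NT_p62WT mice, so the groups overlapped throughout. The mean HD difference of Gnal was 0.10, with a 95% interval of -0.04 to 0.25 (adjusted p = 0.228, limma). Its lower bound lay above the upper bounds of the intervals of all 7 genes that fell, the nearest being that of Gng7 at -0.06. Gng7, the Golf gamma subunit, measured 12.06, 12.01 and 11.92 in the HD_p62KO mice and 12.09, 12.38 and 12.18 in the HD_p62WT mice. It measured 12.25, 12.36 and 12.26 in the NT_p62KO mice and 12.35, 12.22 and 12.30 in the NT_p62WT mice. All 3 HD_p62KO mice lay below all 3 NT_p62KO mice, while HD_p62WT 2 was the highest of all 12 mice. Gng7 fell by 0.18 ± 0.058 (SE) over both p62 genotypes, 1.14-fold lower (adjusted p = 0.0275, limma). Gng7 fell by 0.30 without p62 (adjusted p = 0.0253, limma), and its difference with normal p62 was -0.07 (adjusted p = 0.606, limma), which became -0.16 without HD_p62WT 2, -0.01 without HD_p62WT 1 and -0.05 without NT_p62WT 1. With each array's SD as a covariate both calls were lost (adjusted p = 0.247 without p62 and 0.321 over both genotypes, limma). The call without p62 was lost when HD_p62KO 2 or 3 or NT_p62KO 2 or 3 was left out (adjusted p between 0.0570 and 0.0924, limma). The call over both genotypes was lost without HD_p62KO 2 or 3, HD_p62WT 1 or 3, NT_p62KO 2, or NT_p62WT 1 or 3 (adjusted p between 0.0506 and 0.0709, limma).

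Adcy5, the main adenylyl cyclase of the striatum, had the largest fall of the 9 genes over both p62 genotypes. It measured 10.41, 10.49 and 10.43 in the HD_p62KO mice and 10.47, 10.52 and 10.52 in the HD_p62WT mice. It measured 11.20, 11.44 and 11.20 in the NT_p62KO mice and 11.35, 11.19 and 11.31 in the NT_p62WT mice. The 6 HD mice lay within 0.11 of each other, and 0.67 separated the highest of them from the lowest non-transgenic mouse. Adcy5 fell by 0.81 ± 0.055 (SE), 1.75-fold lower in HD mice (adjusted p = 5.06e-06, limma), and it ranked 14 of 19248 genes by p. The difference was -0.84 without p62 (adjusted p = 0.000158, limma) and -0.78 with normal p62 (adjusted p = 3.40e-04, limma). The intervals of Adcy5 and Chrm4 overlap, so their order by size is not settled.

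Ppp1r1b encodes DARPP-32, the phosphatase inhibitor that integrates dopamine and adenosine signals through cAMP. It measured 10.70, 10.69 and 10.44 in the HD_p62KO mice and 10.82, 10.81 and 10.71 in the HD_p62WT mice. It measured 11.33, 11.48 and 11.19 in the NT_p62KO mice and 11.47, 11.23 and 11.32 in the NT_p62WT mice. HD_p62KO 3 was the lowest mouse of the 12, as it was for Drd2. Ppp1r1b fell by 0.64 ± 0.069 (SE) in HD mice, 1.56-fold lower (adjusted p = 9.59e-05, limma). The difference was -0.72 without p62 (adjusted p = 0.00120, limma) and -0.56 with normal p62 (adjusted p = 0.00768, limma).

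The cross with p62 knockout mice asks whether loss of p62 changes these differences. Without p62, 7 of the 9 genes fell and 0 rose, where 8.34% of all genes fell and 13.3% rose. With normal p62, 5 fell and 0 rose, where 3.24% of all genes fell and 3.85% rose. The 5 were Drd1, Drd2, Chrm4, Ppp1r1b and Adcy5. The median difference of the 9 genes was -0.58 without p62 and -0.39 with normal p62, while the median of all genes was -0.02 and -0.01. The HD difference was the more negative one without p62 for each of the 7 genes that fell, although for Adcy5 this turned round without NT_p62KO 2, where the shift was 0.02. The test of that difference itself called none of the 9 genes and 0 of 19248 in all (0% called; adjusted p = 0.991 for each of the 9, limma). At an unadjusted p under 0.05 it counted 0 of the 9 genes and 665 of all genes. The largest shift among the 7 was that of Drd2, at -0.24 with a 95% interval of -0.49 to 0.02. Those of Gng7 and Drd1 were -0.22 (95% interval -0.47 to 0.03; -0.14 without HD_p62WT 2) and -0.20 (95% interval -0.42 to 0.03). These intervals hold both a shift of 0 and shifts larger than those measured.

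p62 loss by itself called none of the 9 genes. In HD mice 0.00520% of all genes passed, which was 1 gene, in non-transgenic mice 0.00520%, and averaged over HD status 0.0104%. At an unadjusted p under 0.05 (limma), 1 of the 9 genes was counted in HD mice, 0 in non-transgenic mice and 0 on average. Among all genes the counts were 555 in HD mice, 639 in non-transgenic mice and 518 on average. The 1 gene was Gng7, with a difference of -0.22 in HD mice (95% interval -0.40 to -0.04, unadjusted p = 0.0184, adjusted p = 0.9999, limma). Without HD_p62WT 2 it was -0.14 (unadjusted p = 0.0927, limma). The p62 differences of the other 8 genes in HD mice lay between -0.17 for Ppp1r1b and Drd2 and 0.12 for Drd3. Without HD_p62KO 3 that of Drd3 was -0.003 and that of Ppp1r1b was -0.09. In non-transgenic mice the 9 genes lay between -0.14 for Drd3 and 0.11 for Chrm4. Drd3 was at -0.08 there without NT_p62KO 1, and Chrm4 was at 0.05 without NT_p62KO 2 or NT_p62WT 2. The plot of differences with intervals sets the HD, p62 and difference comparisons side by side. These comparisons share mice, since each group enters several of them.

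**Figure D2:**
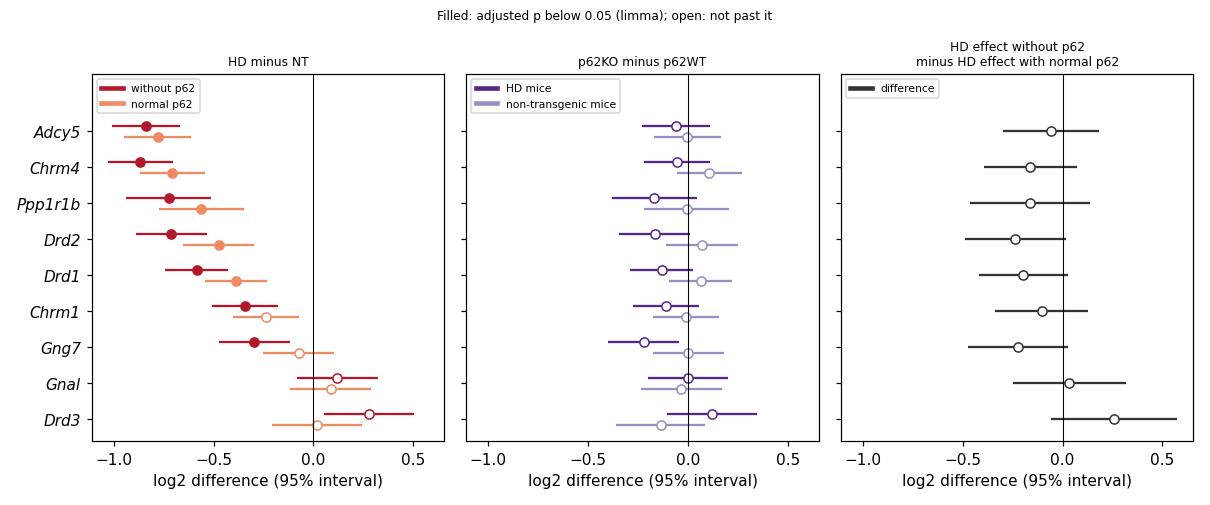
Log2 differences (horizontal axes) of the 9 measured genes (vertical axis, ordered by their mean HD difference) with 95% intervals, for HD minus non-transgenic (left), p62 knockout minus normal p62 (middle) and the HD effect without p62 minus that with normal p62 (right). Filled points passed an adjusted p of 0.05 in limma; 7 are filled without p62 and 5 with normal p62 in the left panel, and 0 in the other panels.

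Direct-pathway and indirect-pathway receptor genes were both lower in HD mice. Per mouse, the mean of Drd1 and Chrm4 minus Drd2 was compared between HD and non-transgenic mice. The HD difference of this value was -0.04 ± 0.04 (SE from the pooled SD of 0.07 within groups, 6 HD and 6 non-transgenic mice), and it ranged from -0.07 to -0.02 over the alternatives tried. It is given with no test, since the genes were chosen with results of these data known. It rests on 1 indirect-pathway gene, and the 2 direct-pathway genes differed from each other, with Drd1 at -0.49 (95% interval -0.60 to -0.37) and Chrm4 at -0.79 (95% interval -0.90 to -0.67). Drd2 at -0.59 (95% interval -0.72 to -0.47) lay between them. Set against the non-transgenic mean of the same p62 genotype, each of the 6 HD mice was below 0 for all 3 receptors, as the plot of receptor shifts per HD mouse shows.

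**Figure D3:**
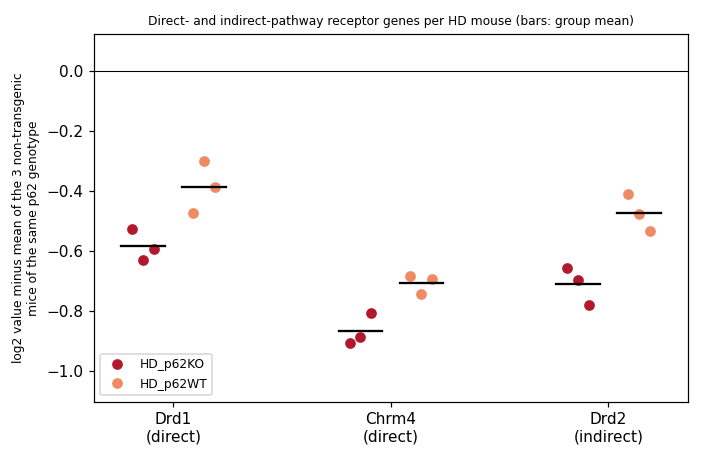
Each point is 1 HD mouse: its log2 value minus the mean of the 3 non-transgenic mice of the same p62 genotype (vertical axis), for the direct-pathway genes Drd1 and Chrm4 and the indirect-pathway gene Drd2 (horizontal axis), with group means as bars. All 18 points lie below 0, and in each gene the HD_p62KO mean lies below the HD_p62WT mean.

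Other markers of the 2 pathways moved in both directions. Of 7 other direct-pathway markers, 2 fell and 4 rose. Pdyn, the dynorphin precursor, fell by 0.48 (adjusted p = 0.000692, limma). Eya1 rose by 0.59 (adjusted p = 0.000292, limma), Ebf1 by 0.56 (adjusted p = 0.000399, limma) and Isl1 by 0.39 (adjusted p = 0.00133, limma). These 3 genes encode transcriptional regulators, and Ebf1 and Isl1 act in the development of direct-pathway neurons. Tac1, the other marker that rose, did so by 0.28 (adjusted p = 0.00669, limma). With array SD as a covariate Tac1 was not called, at 0.21 (adjusted p = 0.125, limma). Sfxn1 differed by 0.14 (adjusted p = 0.102, limma). Of 4 other indirect-pathway markers, 2 fell and 0 rose. Penk, the enkephalin precursor, fell by 0.60 (adjusted p = 1.10e-05, limma) and Plxdc1 fell by 0.54 (adjusted p = 0.00172, limma), while Grik3, a kainate receptor subunit, differed by -0.05 (adjusted p = 0.432, limma). All 7 other projection neuron markers measured fell. The sodium channel subunit gene Scn4b fell by 1.82, the phosphodiesterase gene Pde10a fell by 0.85, Rgs9 fell by 0.75 and Rasd2 fell by 0.72 (adjusted p between 1.50e-08 and 1.50e-05, limma).

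Over the 12 arrays, the genes whose values were most like those of Drd1 were Rgs9 (r = 0.985), Rin1 (r = 0.982) and Jcad (r = 0.980). Those most like Chrm4 were Penk (r = 0.994), Cnr1 (r = 0.994) and Ctxn1 (r = 0.993). Those most like Drd2 were Syndig1l (r = 0.993), Pde1b (r = 0.991) and Rasd2 (r = 0.990). These correlations describe the same 12 arrays of HD and non-transgenic mice. All the genes named here fell in HD mice, and this shared difference enters each correlation. The indirect-pathway marker Penk was thus the gene most like the direct-pathway gene Chrm4. Within groups, Drd1, Drd2, Chrm4, Ppp1r1b and Adcy5 deviated together in some non-transgenic mice. NT_p62KO 2 and NT_p62WT 1 lay above their group mean in 5 of the 5 genes, and NT_p62KO 1 and NT_p62WT 2 in 0 of 5. The share of all genes with such deviations was not counted. With group means removed, r among the 5 genes ran from 0.094 (Drd1 and Chrm4) to 0.829 (median 0.515, 10 pairs). The other 26 pairs of measured members ran from -0.51 to 0.843 (median 0.31). The highest was Adcy5 with Gnal, which was not called, so such deviations were not limited to these 5 genes.

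The rest of the pathway was described from 10 lists of 106 genes, of which 93 were measured. Among these 93 genes 22 fell, 22 rose and 49 were not called in HD mice over both p62 genotypes, against 15.0% of all genes that fell and 19.9% that rose. Their median difference was -0.04, and 0 of the 93 passed in a p62 comparison or in the difference of the HD effects. The count of genes that rose depended on the arrays used: it was 8 with each array's SD as a covariate and 13 without HD_p62KO 2, HD_p62WT 1 or HD_p62WT 3, and 14 without NT_p62WT 1. The count of genes that fell was 20, 20, 20, 19 and 20 in the same 5 settings.

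**Figure D4:**
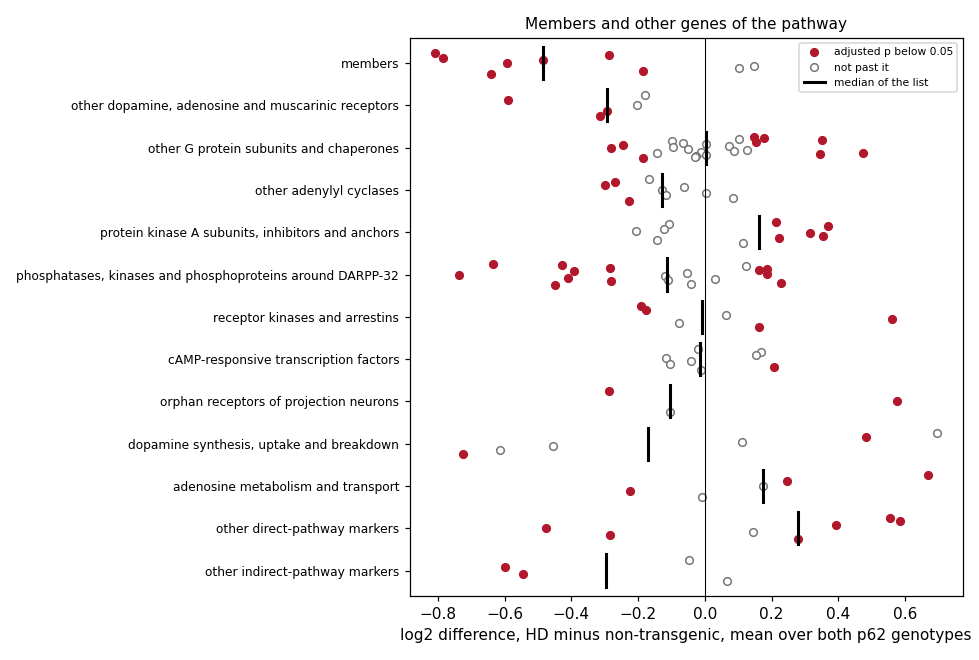
Each point is 1 gene: its log2 difference, HD minus non-transgenic, averaged over both p62 genotypes (horizontal axis), grouped by list (vertical axis), filled where the adjusted p was below 0.05 in limma, with the list median as a bar. The 9 measured members at the top have the lowest median of the lists plotted (-0.49), and all 5 filled points of the protein kinase A list lie right of 0. Lists of other projection neuron markers (median -0.72) and cortical excitatory markers (median -0.58), which are not plotted, had lower medians.

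Among the other receptors 3 of 5 fell and 0 rose. Drd5, the second D1-like receptor, fell by 0.32 (adjusted p = 0.000603, limma), Drd4 fell by 0.29 (adjusted p = 0.00204, limma) and the Gq-coupled muscarinic receptor gene Chrm3 fell by 0.59 (adjusted p = 0.000833, limma). With array SD as a covariate Drd4 was at -0.19 (adjusted p = 0.0351, limma) and was no longer called without p62 (adjusted p = 0.104, limma). Chrm2, an inhibitory muscarinic receptor, differed by -0.18 (adjusted p = 0.110, limma). Of 23 other G protein subunits and chaperones, 3 fell and 6 rose. Gng3 rose by 0.47 (adjusted p = 0.000814, limma) and Gnai3, an inhibitory alpha subunit, by 0.35 (adjusted p = 0.00309, limma). With array SD as a covariate Gnai3 was at 0.18 (adjusted p = 0.0481, limma) over both p62 genotypes and at 0.10 without p62 (adjusted p = 0.483, limma). Gnb5, the beta subunit that partners Rgs9, fell by 0.28 (adjusted p = 0.00157, limma) and Gnb2 fell by 0.25 (adjusted p = 0.00171, limma). The rises numbered 3 without HD_p62KO 2 or 3, HD_p62WT 1 or 3, or NT_p62WT 3. Gnb1, the brightest that did not pass, differed by 0.00 (adjusted p = 0.949, limma).

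Of the 9 other adenylyl cyclases, 3 fell and 0 rose, each by less than Adcy5. Adcy2 fell by 0.30 (adjusted p = 0.0210, limma), Adcy10, the soluble cyclase, fell by 0.27 (adjusted p = 0.0495, limma) and Adcy9 fell by 0.23 (adjusted p = 0.00809, limma). The Adcy10 call was lost when any mouse other than HD_p62KO 3, HD_p62WT 1 or NT_p62WT 2 was left out (adjusted p between 0.0516 and 0.118, limma). It was also lost with the replicate number as a block (adjusted p = 0.0740, limma), after quantile normalization (adjusted p = 0.0931, limma), with a variance trend (adjusted p = 0.0502, limma) and with array SD as a covariate (adjusted p = 0.328, limma). The Adcy2 call was lost without HD_p62KO 2 (adjusted p = 0.0536, limma) or NT_p62WT 3, and with array SD as a covariate Adcy2 was at -0.47. Adcy3 differed by -0.06 (adjusted p = 0.272, limma). No cyclase other than Adcy5 fell without p62, where Adcy10 had a difference of -0.41 (adjusted p = 0.0510, limma).

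Of 10 protein kinase A subunit, inhibitor and anchor genes, 5 rose, 0 fell and 5 did not pass the test over both p62 genotypes. The regulatory subunit gene Prkar1a rose by 0.35 (adjusted p = 0.00121, limma), the catalytic subunit gene Prkacb by 0.32 (adjusted p = 0.00128, limma), the kinase inhibitor gene Pkia by 0.37 (adjusted p = 0.00187, limma) and Prkar1b by 0.22 (adjusted p = 0.00769, limma). The anchor gene Akap12 rose by 0.21 (adjusted p = 0.0498, limma). Without p62 the same list had 5 rises, and with normal p62 it had 0 rises and 0 falls. With normal p62 Prkar1a was at 0.29 (adjusted p = 0.0516, limma), Pkia at 0.33 (adjusted p = 0.0546, limma) and Prkacb at 0.25 (adjusted p = 0.0626, limma). Prkar1b was at 0.15 there (adjusted p = 0.221, limma) and Akap12 at 0.07 (adjusted p = 0.737, limma). Of the 10 genes, 0 passed in a p62 comparison or in the difference of the HD effects. The Akap12 call held only when the mouse left out was HD_p62KO 1 or NT_p62WT 2 (adjusted p otherwise between 0.0532 and 0.120, limma). It was also lost with the replicate block, after quantile normalization, with equal array medians and with the choroid plexus covariate. The list thus holds both subunits and an inhibitor among the genes that rose. The count was 3 with each array's SD as a covariate, where Prkar1a was at 0.22 (adjusted p = 0.0128, limma), Pkia at 0.21 (adjusted p = 0.0288, limma) and Prkar1b at 0.15 (adjusted p = 0.131, limma). Array SD ranged from 1.79 to 1.87 in HD arrays and from 1.73 to 1.82 in non-transgenic arrays. Akap5, the anchoring protein that holds the kinase at synapses, differed by -0.11 (adjusted p = 0.125, limma).

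Of 18 phosphatases, kinases and phosphoproteins around DARPP-32, 8 fell and 4 rose. Ppp1r1a, inhibitor-1 of protein phosphatase 1 and a relative of DARPP-32, fell by 0.74 (adjusted p = 0.000108, limma). The cAMP-regulated phosphoprotein gene Arpp19 fell by 0.64 (adjusted p = 0.000107, limma) and its namesake Arpp21 fell by 0.43 (adjusted p = 8.04e-05, limma). Ptpn5, the striatum-enriched tyrosine phosphatase, fell by 0.45 (adjusted p = 0.000190, limma), while Ppp1cb, a catalytic subunit of protein phosphatase 1, differed by -0.05 (adjusted p = 0.453, limma). The 4 rises of this list were at most 0.23, and 0 of them passed with array SD as a covariate. They numbered 1 or 2 when any mouse other than HD_p62KO 1, HD_p62WT 2 or NT_p62KO 2 was left out. Of 6 receptor kinases and arrestins, 2 fell (Arrb1 fell by 0.19 and Arrb2 fell by 0.18) and 2 rose (Grk4 by 0.56 and Grk6 by 0.16). Only 1 of the 2 falls was called when any mouse other than HD_p62KO 2, HD_p62WT 3, NT_p62KO 3 or NT_p62WT 3 was left out, and without HD_p62WT 3 Grk6 was no longer called (adjusted p = 0.0515, limma). With array SD as a covariate Grk4 was at 0.22 (adjusted p = 0.150, limma) and Grk6 at 0.10 (adjusted p = 0.221, limma). Grk5 differed by -0.08 (adjusted p = 0.288, limma). Of 8 cAMP-responsive transcription factors and coactivators, 0 fell and 1 rose, Crtc2 by 0.21 (adjusted p = 0.00706, limma), while Atf2 differed by 0.17 (adjusted p = 0.124, limma). Crtc2 was not called with array SD as a covariate, at 0.18 (adjusted p = 0.0800, limma), and without HD_p62WT 2 or NT_p62WT 3 the rises of the list numbered 2. Of 3 orphan receptors of projection neurons, Gpr149 rose by 0.58 (adjusted p = 0.000306, limma), Gpr12 fell by 0.29 (adjusted p = 0.0213, limma) and Gpr3 differed by -0.10 (adjusted p = 0.303, limma). Gpr12 was not called without HD_p62WT 3 (adjusted p = 0.0523, limma), and with array SD as a covariate it was at -0.47 (adjusted p = 0.00548, limma).

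Supply and breakdown of the transmitters were measured through 6 dopamine genes, of which 1 fell and 1 rose, and 5 adenosine genes, of which 1 fell and 2 rose. Maoa, which encodes a dopamine-degrading oxidase, rose by 0.48 (adjusted p = 0.000622, limma) and was at 0.32 with array SD as a covariate (adjusted p = 0.00668, limma). Th, the rate-limiting enzyme of dopamine synthesis, is made mainly in midbrain neurons and by few striatal cells. Th measured 7.74 to 8.00 in the 6 HD mice, against 8.26 to 8.50 in 5 non-transgenic mice and 9.77 in NT_p62WT 2. The dopamine transporter gene Slc6a3, looked at because of this mouse, was at 10.25 in it and at 7.69 to 7.83 in the other 5 non-transgenic mice, and at 7.39 to 7.83 in the 6 HD mice. Th fell by 0.73 (adjusted p = 0.0127, limma), a call that was lost with array SD as a covariate (adjusted p = 0.0899, limma) and without 3 arrays of small spread (adjusted p = 0.0698, limma). With normal p62 its difference was -0.98 with NT_p62WT 2 (adjusted p = 0.0474, limma) and -0.54 without it (adjusted p = 0.0145, limma). Maob differed by 0.11 (adjusted p = 0.345, limma). Ddc, the next enzyme of dopamine synthesis, differed by 0.70 (adjusted p = 0.0528, limma). It was called higher without HD_p62KO 1, at 0.83 (adjusted p = 0.0286, limma), and without NT_p62WT 2, at 0.95 (adjusted p = 0.00306, limma). The vesicular monoamine transporter gene Slc18a2 differed by -0.45 (adjusted p = 0.0647, limma), and it was called lower when NT_p62WT 1, 2 or 3 was left out, with a difference of -0.56 (adjusted p = 0.0354, limma), -0.25 (adjusted p = 0.0133, limma) and -0.56 (adjusted p = 0.0345, limma) in that order. Leaving out NT_p62WT 2 changed no call of the 9 genes in the 3 HD comparisons. Slc29a1, an adenosine transporter, fell by 0.22 (adjusted p = 0.0178, limma), while adenosine kinase, Adk, rose by 0.25 (adjusted p = 0.0259, limma) and adenosine deaminase, Ada, by 0.67 (adjusted p = 0.0410, limma). None of the 3 passed with array SD as a covariate, while Slc29a2 differed by -0.01 (adjusted p = 0.924, limma). Both rises held only when the mouse left out was HD_p62KO 3 or NT_p62WT 3.

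Markers of other cells are given for comparison. Except for the choroid plexus markers, their part in the results above was not tested. Of 6 striatal interneuron markers 5 fell, and of these Nos1 fell by 0.47, Slc5a7 fell by 0.53, Sst fell by 0.38 and Chat fell by 0.79 (adjusted p between 0.000108 and 0.00220, limma), so lower transcripts were not limited to projection neuron genes. Pvalb differed by -0.27 (adjusted p = 0.223, limma). List means of these interneuron markers were 8.70 to 8.97 in HD mice and 9.19 to 9.41 in non-transgenic mice. Cortical excitatory markers, of which 2 of 6 fell (5 without NT_p62KO 3, and 1 without HD_p62KO 2 or NT_p62WT 3), ranged in list mean from 7.11 to 8.23 in HD mice and from 7.47 to 8.70 in non-transgenic mice. Thalamic and septal markers (0 of 5 called) ranged from 7.33 to 8.15 in HD mice and from 7.39 to 8.80 in non-transgenic mice. List means of choroid plexus markers (1 of 7 higher, and 0 without HD_p62KO 2 or 3, HD_p62WT 1, NT_p62KO 3, or NT_p62WT 1 or 3) ranged from 7.08 to 9.46 in HD mice and from 7.22 to 8.73 in non-transgenic mice. With each array's choroid plexus mean in the fit, the 7 genes that fell over both p62 genotypes were all still called. Among glial and vascular lists, 1 of 5 oligodendrocyte, 2 of 6 astrocyte, 0 of 5 microglia and 1 of 4 endothelial markers fell and 0 rose. Mobp fell by 0.24, Slc1a2 fell by 0.29, Aqp4 fell by 0.22 and Cldn5 fell by 0.36 (adjusted p between 0.000689 and 0.0495, limma). The Aqp4 call held only when the mouse left out was HD_p62WT 1 or NT_p62WT 1 (adjusted p otherwise between 0.0557 and 0.105, limma). With array SD as a covariate neither Aqp4 (adjusted p = 0.0831, limma) nor Cldn5 (adjusted p = 0.124, limma) was called. The brightest markers that did not pass were Mbp (-0.01), Slc1a3 (-0.13), Csf1r (0.08) and Flt1 (-0.07). Rspo1 and Nptx1 were the cortical markers called, at -0.30 and -0.83, and Clic6 the choroid plexus marker, at 0.64. Slc17a7 (-0.83), Zic1 (0.03) and Ttr (0.01) did not pass.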

How the data were processed

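Groups and replicate numbers came from the sample titles. Per the submitters' processing notes the authors used RMA, and each deposited value is the log2 level of 1 probe set. RMA normalizes arrays to each other and so hides any change common to most genes. The number of arrays limits the precision, and detection calls were not used here. The array held 24055 probe sets. The platform table gave 1 symbol for 19942, several for 1225 and did not list 2888. Taking the brightest per gene left 19248 genes. The build of the array design is not given in the sources used here, so gene positions are not printed except for the RefSeq promoter windows.

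limma 3.58.1 in R 4.3.3 fitted group means over the 12 arrays (8 residual and 4.14 prior degrees of freedom), with 7 contrasts adjusted by Benjamini-Hochberg over all genes at a threshold of 0.05. The titles call the samples biological replicates and nothing more, so each was taken as 1 mouse and p-values reflect only how these samples vary, which may be technical. The members and lists were chosen with earlier results of these data known. The direct-pathway minus indirect-pathway value was planned with Adora2a and used Drd2 alone. All members are named; from each list, the up to 4 called genes of smallest p and the brightest uncalled one; and the 3 genes most correlated with Drd1, Chrm4 and Drd2. Slc6a3, Slc18a2, Ddc, Tac1 and Akap12 were added after their values were seen.

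On simulated data (19248 genes, 200 changed), log2 changes of 0.5 were recovered for 89 of 100 genes in the mean HD contrast, and changes of 1 for 97 of 100, with 11 false calls. Without p62 the figures were 67, 93 and 7, and with normal p62 they were 64, 94 and 14. In the data far more genes than 200 were called: 6728 in the mean HD contrast, 4172 without p62 and 1366 with normal p62. The adjustment depends on the share of genes that change, so these rates need not hold for the data. Same-numbered mice of different groups deviated from their group means with correlations of -0.34 to 0.21 over 18 pairs. Other-numbered mice did so with correlations of -0.33 to 0.43 over 36 pairs. These values cannot tell whether same-numbered mice shared a litter or day. The labels tie the numbers to neither, so the main fit did not pair the mice.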

Additional observations from a re-analysis of the deposited data

How the results depend on the processing

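The members' counts of calls were recomputed under up to 27 alternatives: a replicate block, quantile normalization, equal array medians, filters at the 25th and 50th percentile of brightness, probe sets averaged per gene, variance trend, robust variance, array weights, only the groups compared, thresholds of 0.01 and 0.1, array SD or choroid plexus mean as a covariate, each mouse left out, and, chosen after seeing the data, 3 arrays of small spread left out. Members called numbered 5 to 8 without p62, 4 to 6 with normal p62 and 6 to 8 over both genotypes, and stayed at 0 in the p62 comparisons and in the difference. Each of 63 member values was refitted, which gave 1674 values in all; 22 lost a call, 10 gained one and 0 called values changed sign, while 59 values that were not called did. The lost calls concern Gng7, Chrm1 and Drd1 with normal p62, and the gained calls Drd3 and Chrm1. With the replicate number as a block, which the labels tie to no litter or day, 7 members were called without p62, 5 with normal p62 and 7 over both genotypes, and 0 in the p62 comparisons and the difference. Of the 93 other pathway genes, 22 fell and 22 rose as reported, against 20 and 8 with array SD as a covariate, 27 and 16 after quantile normalization, and 14 and 11 at a threshold of 0.01. The cause was not tested. Levels near background could not be judged, since detection calls were not used.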
